A study of Mus musculus with 12 samples.

Results

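The Lars2 transcripts of mouse dorsal root ganglia were followed through a pulldown of sensory neuron ribosomes, with and without sciatic nerve injury. The series lists 101744 transcripts, and 2 of them, ENSMUST00000038863.9 and ENSMUST00000217116.2, were taken as Lars2 by their transcript IDs. They were chosen because of their large share of the pulldown, so that share is a description and carries no test. The same choice also named the mitochondrial ribosomal RNAs mt-Rnr1 (ENSMUST00000082388) and mt-Rnr2 (ENSMUST00000082390), and these 2 were not analysed here. The deposited table does not pair transcript IDs with gene names. The gene name table used here was searched by its gene IDs. Transcript IDs cannot match these, so the 0 matches found carry no information.

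Lars2 is a nuclear gene that encodes the mitochondrial leucyl-tRNA synthetase, the enzyme that loads leucine onto its transfer RNA for protein synthesis inside mitochondria. Its messenger RNA is translated by cytosolic ribosomes, and the protein is then imported into the organelle. The ribosomes of the mitochondrion are separate ones, built on RNAs encoded by mitochondrial DNA, of which mt-Rnr1 belongs to the small and mt-Rnr2 to the large subunit.

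All animals carried the genotype RPL22HA+/+;Advillin-Cre+. In this design, known as RiboTag, Cre is driven by the promoter of Advillin, a gene of peripheral sensory neurons, and turns on RPL22 that carries an HA tag. RPL22 is a protein of the large subunit of cytosolic ribosomes. Anti-HA immunoprecipitation (IP) of the ganglion lysate then recovers tagged ribosomes with their RNA. The 12 samples form 4 groups of 3, which are IP of uninjured ganglia, IP of ganglia after sciatic nerve injury, input of uninjured ganglia and input of injured ganglia. The labels call the RNA total RNA and give the immunoprecipitation as the extraction for input samples too, so how the input was prepared is uncertain. Age, time after injury, number of animals and any pooling were not stated in the labels. The sensory neuron markers of the ganglion could not be looked up, because the IDs have no gene names here. In bulk RNA of this kind, fewer cells of a type and less RNA per cell cannot be told apart.

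Input samples held 1584104 to 1685756 estimated counts and IP samples 190594 to 212449. Within a group the 3 totals differed by 0.0374% to 0.449% of their mean. Among transcripts other than Lars2 with at least 300 counts in each sample of a group, the median spread between the 3 samples was 1.06 to 1.30 times counting noise. The labels list 3 samples per group and do not say whether they came from separate animals. Because their totals were nearly equal and their spread was close to counting noise, the 3 were summed and each group was counted as 1 sample. Differences between groups therefore have no replicate check, and the spread given below is that between the 3 samples. Intervals are 95% intervals, exact for shares and folds and approximate (normal, in log2 units) for the difference of injury effects. They cover counting error alone. Several PCR reads can stem from the same molecule, and the intervals do not take this in.

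The 2 Lars2 transcripts were the 2 most abundant transcripts of the pulldown in both conditions. In the IP of uninjured ganglia, ENSMUST00000038863.9 had 26129, 26323 and 26026 counts in samples 1 to 3. ENSMUST00000217116.2 had 25215, 24998 and 25467 counts in the same samples. The 3 samples were thus alike, and the 2 transcripts were close to each other in every one of them. Their joint share of this pulldown was 24.2% (95% interval 24.1% to 24.3%; 24.2% ± 0.0617, SD, n = 3). The pair's variance between the 3 samples was 0.333 times that of counting noise, so this SD is not read as a spread between animals.

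After injury both were lower in the pulldown. ENSMUST00000038863.9 had 17054, 17098 and 17141 counts in the IP of injured ganglia. ENSMUST00000217116.2 had 16565, 16505 and 16551 counts. Their joint share was 17.6% (95% interval 17.5% to 17.7%; 17.6% ± 0.0237, SD, n = 3). The pair's variance between these 3 samples was 0.0607 times that of counting noise. All 3 injured IP samples lay below all 3 uninjured ones, with the pair at 17.629% to 17.671% against 24.168% to 24.282%.

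In the input the pair was a minor component. It held 1214, 1261 and 1277 counts in the 3 uninjured samples, which is 0.0742% of the group's counts (95% interval 0.0719% to 0.0766%). It held 1506, 1544 and 1538 counts in the 3 injured samples, which is 0.0965% (95% interval 0.0937% to 0.0993%). The sample shares were 0.0742% ± 0.00196 (SD, n = 3) in uninjured and 0.0965% ± 0.00127 (SD, n = 3) in injured input. The groups did not overlap, and the order was the opposite of that in the pulldown, with the higher share after injury.

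**Figure D1:**
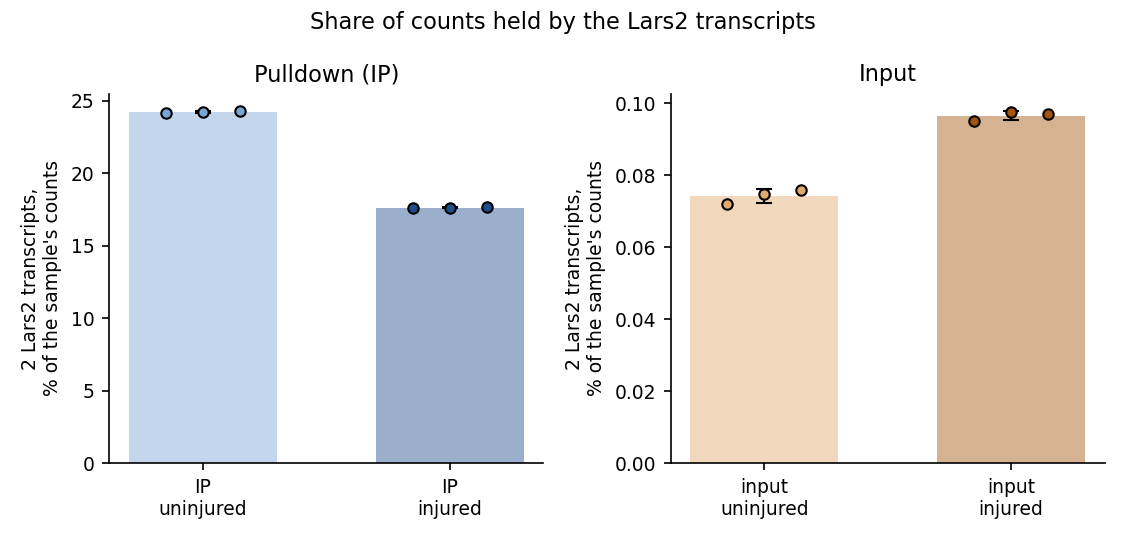
Share of each sample's estimated counts (vertical axes, percent, with a different range in each panel) held by the 2 Lars2 transcripts together. Bars are means of the 3 samples, whiskers their SD and points the samples. The pulldown share is 24.2% in uninjured and 17.6% in injured ganglia, and the input share 0.0742% and 0.0965%.

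How the counts were divided between the 2 transcripts differed between the fractions. In the pulldown, ENSMUST00000038863.9 took 50.5% to 51.3% of the pair's counts in uninjured and 50.7% to 50.9% in injured samples. In uninjured input it took 45.4%, 26.5% and 64.7% in samples 1 to 3, and in injured input 57.8%, 49.4% and 36.8%. The division between the transcripts was therefore steady in the pulldown and variable in the input.

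The input counts of the single transcripts moved in opposite directions. ENSMUST00000038863.9 had 551, 335 and 827 counts in uninjured input and 871, 762 and 565 in injured input. ENSMUST00000217116.2 had 663, 926 and 450 counts in uninjured input and 635, 781 and 973 in injured input. In both groups the sample with the most counts of one transcript had the fewest of the other.

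Their sum hardly moved. Across the 3 uninjured input samples the coefficient of variation was 43.2% for ENSMUST00000038863.9, 35.1% for ENSMUST00000217116.2 and 2.62% for the pair, where counting noise alone gives 2.83% for the pair. In injured input it was 21.1%, 21.3% and 1.35%, against 2.56% from counting noise for the pair. The variance between the 3 uninjured input samples was 107 and 83.6 times that of counting noise for the single transcripts and 0.871 times for the pair. Among 461 other transcripts with 0.5 to 2 times the counts of ENSMUST00000038863.9 in that group, 98.3% had a lower value than it. Among 420 such transcripts for ENSMUST00000217116.2 the share was 97.9%, and among 316 for the pair it was 48.7%. In injured input the values were 32.7 and 36.0 times counting noise for the single transcripts and 0.264 times for the pair. Input levels are accordingly given below for the pair, and a single transcript's input level is given only beside that spread. How the quantification assigned reads between the 2 transcripts was not tested.

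**Figure D2:**
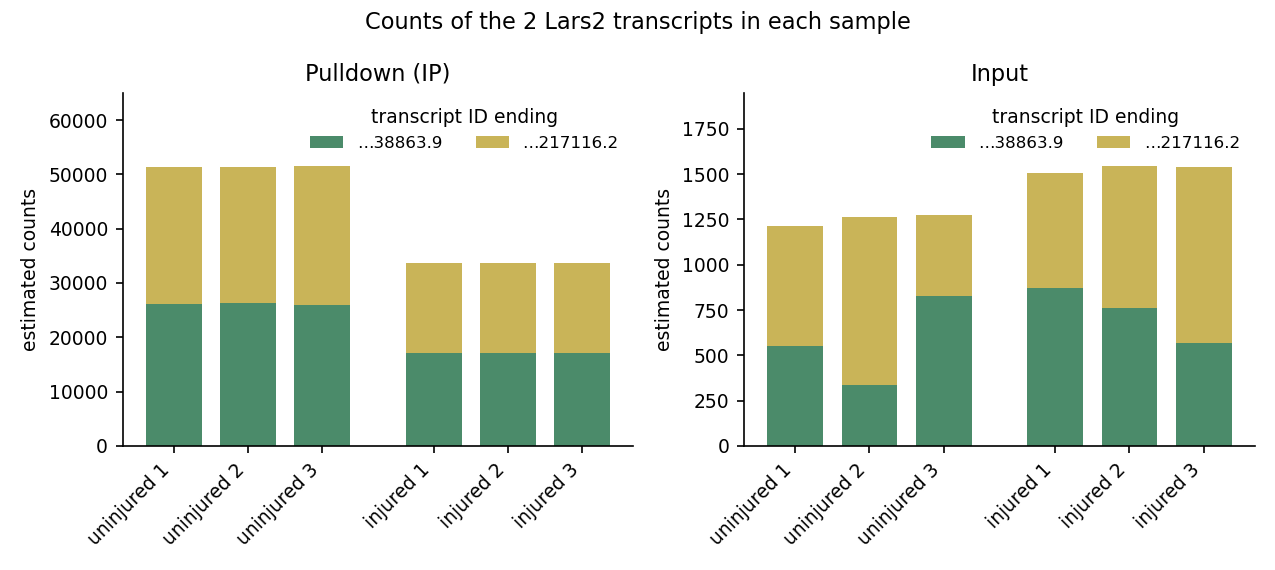
Estimated counts (vertical axes, with a different range in each panel) of the 2 Lars2 transcripts in each of the 12 samples, stacked. ENSMUST00000038863.9 is the lower and ENSMUST00000217116.2 the upper part. The boundary between them is level within each pulldown group and shifts between input samples, from 335 to 827 counts in uninjured input, while the height of the input bars stays within 1214 to 1277 and 1506 to 1544 counts.

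The pair stood well above the rest of the pulldown. In IP uninjured ganglia the next transcript in abundance held 1.22% of the counts, so that ENSMUST00000038863.9 had 10.1 times and ENSMUST00000217116.2 had 9.72 times its counts. In IP injured ganglia the next transcript held 1.58%, and the ratios were 5.66 and 5.48. The 153 next most abundant transcripts had to be added up to reach the pair's counts in uninjured, and the 32 next ones in injured ganglia. Without the pair, 481854 counts remained for all other transcripts in IP uninjured and 471046 in IP injured ganglia. For every 100 of these other counts there were 32.0 Lars2 counts in uninjured and 21.4 in injured ganglia.

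In the input the ranks of the single transcripts moved with their counts. ENSMUST00000038863.9 ranked between 388 and 693 in the 3 uninjured and between 378 and 516 in the 3 injured input samples. ENSMUST00000217116.2 ranked between 358 and 581 in uninjured and between 349 and 469 in injured input samples. Their ranges overlapped, so the 2 transcripts have no fixed order in the input. The most abundant input transcript held 1.31% of the counts in uninjured and 1.82% in injured ganglia. No input transcript held a share like that of Lars2 in the pulldown.

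**Figure D3:**
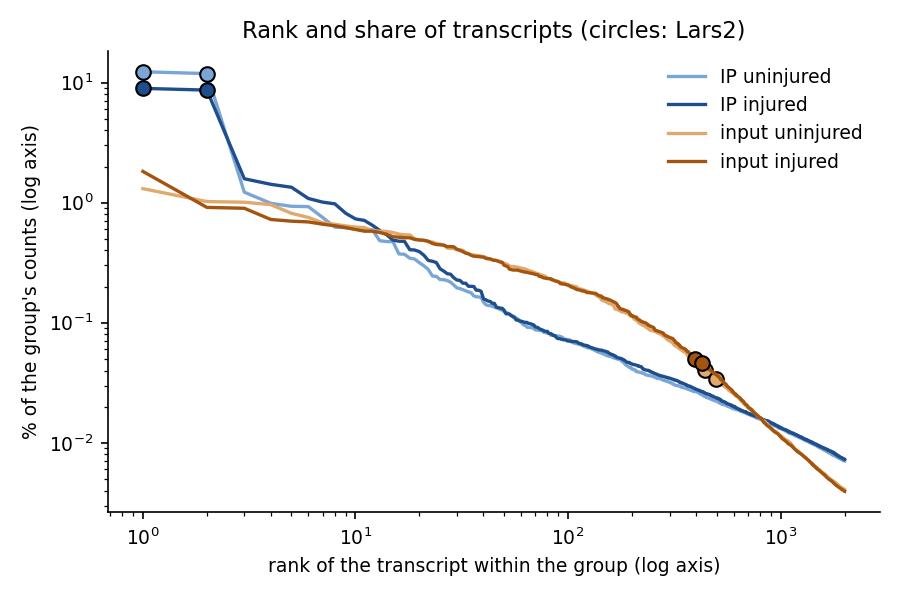
Share of the group's counts (vertical axis, percent, log scale) against rank (horizontal axis, log scale) for the 2000 most abundant transcripts of each group. Circles mark the 2 Lars2 transcripts, at ranks 1 and 2 in both pulldown groups, above a step to 1.22% and 1.58% at the next rank, and at ranks between 395 and 495 in the summed input groups, where ranks in single samples ran from 349 to 693.

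Counts were set against each other between groups after scaling of the library totals with TMM factors, which assume that most transcripts do not differ. Between IP and input this did not hold by the call rule given below, since 6092 of 10151 compared transcripts differed in uninjured and 5438 of 9648 in injured ganglia. In uninjured ganglia the pair was 120-fold higher in IP than in input (95% counting interval 116 to 124). It was 133-fold higher for ENSMUST00000038863.9 and 108-fold higher for ENSMUST00000217116.2, over uninjured input samples of 335 to 827 and 450 to 926 counts. In injured ganglia the pair was 58.9-fold higher in IP (57.1 to 60.6). The single transcripts were 62.4-fold and 55.6-fold higher, over injured input samples of 565 to 871 and 635 to 973 counts. Both transcripts met the rule for a higher transcript in both conditions, which asks for at least 10 CPM (counts per 1000000 scaled counts) in the higher group, a fold of at least 2, a counting interval that excludes 1 and no overlap between the samples. This rule was met by 21.7% of 10151 compared transcripts in uninjured and by 18.3% of 9648 in injured ganglia. The members were chosen on this contrast, and nothing is read from their count.

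Few transcripts had a fold as high as that of Lars2, and together they held a smaller share of the IP counts than the pair. For folds, a group with 0 counts of a transcript was entered with 3 counts, so folds of transcripts found only in the pulldown depend on this floor. For example, ENSMUST00000157063.2 had 42 counts in uninjured IP and 0 in uninjured input. It entered at 40.8-fold, below the pair, though its interval has no upper limit. With this floor, 24 other transcripts in uninjured ganglia, 0.236% of those compared, had at least the pair's fold. Together they held 1.59% of the IP counts. In injured ganglia there were 49, or 0.508%, with 4.91% of the IP counts. With library totals alone instead of TMM factors the pair's log2 fold was 8.35 in place of 6.90 in uninjured and 7.51 in place of 5.88 in injured ganglia. The same change moved the median log2 fold of compared transcripts from -0.43 to 1.67 in uninjured and from -0.54 to 1.79 in injured ganglia. Transcripts higher in IP then made up 68.4% and 73.6% of those called, against 36.2% and 32.5% with TMM factors.

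Nerve injury was next compared within each fraction. In the pulldown the pair's level with TMM factors was 147866 CPM in uninjured and 99305 CPM in injured ganglia, a log2 fold of -0.57. It was thus 1.49-fold lower after injury (95% counting interval 1.48 to 1.50). The pair's log2 fold was -0.46 with library totals alone and -0.42 to -0.41 when any 1 uninjured IP sample was left out. Both lie outside the counting interval in log2 units, -0.59 to -0.56. The log2 fold was -0.58 for ENSMUST00000038863.9 and -0.57 for ENSMUST00000217116.2. Neither reached a 2-fold difference, so neither was called, where 10.9% of 8068 compared transcripts were called lower and 11.3% higher. All 3 injured samples lay below all 3 uninjured samples for both transcripts, as they did for 18.5% of compared transcripts. Of all compared transcripts 33.2% had a lower log2 fold than ENSMUST00000038863.9, and their median was -0.08. A decrease of this size placed Lars2 within the middle of the distribution over all pulldown transcripts, as the plot of log2 folds shows.

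In the input the pair's level was 1.37-fold higher after injury (95% counting interval 1.31 to 1.43), at 1687 against 1236 CPM, a log2 fold of 0.45. All 3 injured samples lay above all 3 uninjured samples, as in 19.1% of 8979 compared transcripts. The pair did not reach a 2-fold difference, where 9.49% were called higher and 6.89% lower. Higher transcripts made up 57.9% of those called, but 72.4% in edgeR and 86.0% in DESeq2 with the samples as replicates. Taken singly, the transcripts had log2 folds of 0.52 and 0.39, and their samples overlapped. For ENSMUST00000038863.9 the log2 fold was 0.92 without uninjured input sample 3, 0.28 without uninjured input sample 2 and 0.30 without injured input sample 1. For ENSMUST00000217116.2 it was 0.71 without uninjured input sample 2, 0.20 without uninjured input sample 3 and 0.14 without injured input sample 3. Only the sum of the 2 transcripts separated the input groups.

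As an alternative, the 12 samples were entered as 3 replicates per group in edgeR's quasi-likelihood test, with Benjamini-Hochberg adjustment over all transcripts tested. For injury in the pulldown the adjusted p in edgeR was 0.185 for ENSMUST00000038863.9 and 0.122 for ENSMUST00000217116.2. For injury in the input it was 0.287 and 0.36. In this test neither transcript passed 0.05 in either fraction. It estimates 1 dispersion per transcript from all 12 samples, which takes in the spread of the single transcripts between input samples. These p-values therefore cannot decide whether injury changed the pair's level in either fraction. No adjusted p is given for the pair.

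The difference between the injury effects was computed as the log2 injury fold in IP minus that in input. It was -1.02 for the pair (95% counting interval -1.09 to -0.96), from -0.57 in IP and 0.45 in input. It was -1.10 for ENSMUST00000038863.9 (-1.190 to -1.005) and -0.96 for ENSMUST00000217116.2 (-1.05 to -0.87). Of 4928 transcripts with 10 counts or more in each of the 4 groups, 10.4% were lower by at least 1 with an interval that excludes 0, and 10.1% higher. ENSMUST00000038863.9 met this rule and ENSMUST00000217116.2 did not. The first no longer met it without uninjured input sample 2 (-0.86), injured input sample 1 (-0.86) or injured input sample 2 (-0.98). The other met it without uninjured input sample 2 (-1.29) or injured input sample 1 (-1.01), and barely without injured IP sample 1 (-1.0001) or 3 (-1.003). The pair's own difference was -0.96 to -0.92 when any 1 uninjured IP or injured input sample was left out. It thus did not reach 1 in size. In these runs the pair's share stayed at 24.22% to 24.27% in uninjured IP and at 0.0961% to 0.0972% in injured input. A scaled level is the share divided by the group's TMM factor, and these factors were recomputed in each run. With the shares nearly unchanged, the difference moved through the factors. Why the factors changed was not tested. The edgeR interaction term, with the samples as replicates, gave an adjusted p of 0.13 and 0.12 for the single transcripts. These rest on the same dispersions and cannot decide the pair's difference. Among all 4928 transcripts 11.1% had a lower difference than the pair.

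Of 5637 transcripts compared for injury in both fractions, 61, or 1.08%, lay lower in all 3 injured IP samples and higher in all 3 injured input samples. Neither Lars2 transcript was among them, because each overlapped in the input, while their sum showed this order. The reverse order was found for 231, or 4.10%.

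**Figure D4:**
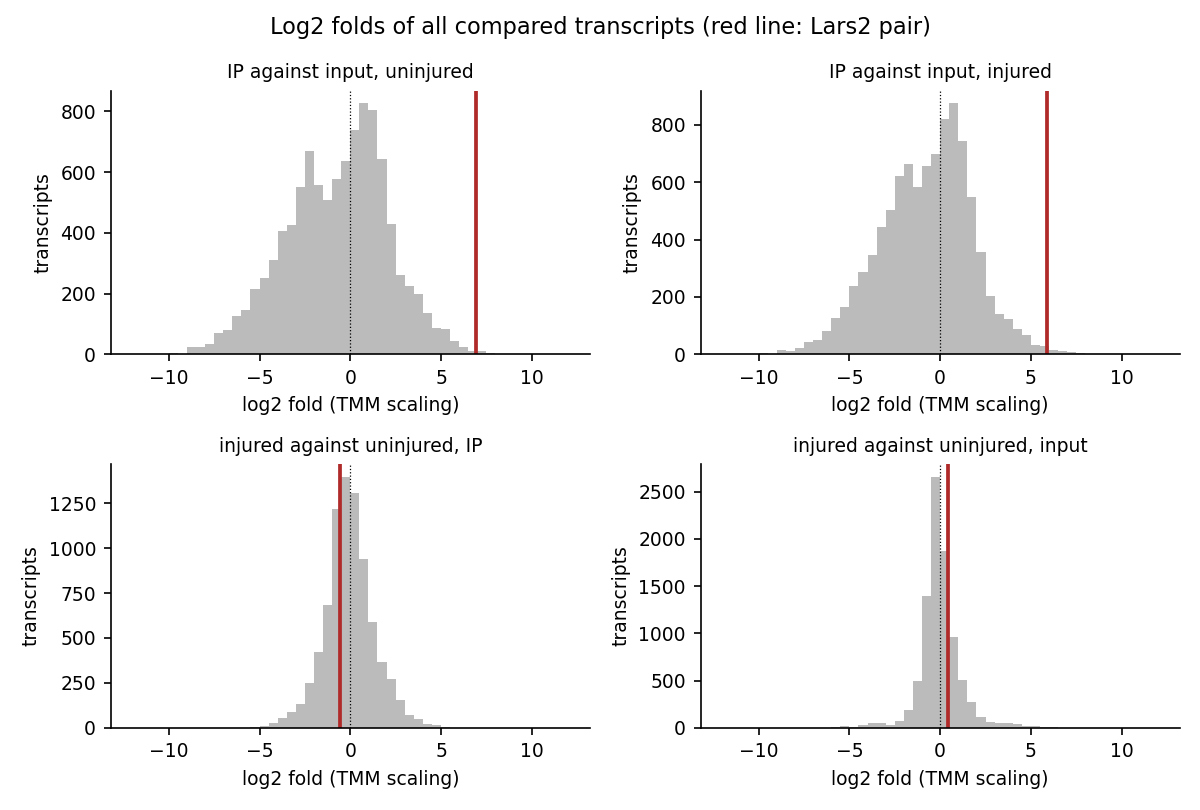
Number of compared transcripts (vertical axes) by log2 fold with TMM scaling (horizontal axes, bins of 0.5, values beyond 12 in the end bins) in the 4 comparisons. The red line marks the Lars2 pair, at 6.90 and 5.88 in IP against input, far to the right of most transcripts, and at -0.57 and 0.45 for injury in IP and in input, inside the bulk of the distribution.

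The other most abundant transcripts of the pulldown had a larger summed share after injury. Of the 10 most abundant pulldown transcripts by mean CPM of the 2 IP groups, 8 were not Lars2. Their summed share was 5.99% in IP uninjured and 7.83% in IP injured ganglia, and 6 of the 8 had a larger share after injury. Counted without Lars2 in the total, their sum was 7.90% and 9.51%, and 5 of the 8 were larger. Over all transcripts compared in IP, the median log2 injury fold with library totals alone was 0.12. The 8 were picked on both IP groups, so the injured group entered the choice. The largest of the 8 reached 1.58% of the counts in either IP group. Those ranked 5 and 10 among the 10 were nearly absent from the input. Rank 5 held 0.473% of uninjured and 1.34% of injured IP, against 0% and 4.23e-05% of the input. Rank 10 held 0.225% and 1.01% of IP, against 9.64e-05% and 0% of the input. The rest of the 8 each held at least 0.0546% of either input group.

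Likeness to the Lars2 pair was measured as Pearson's r of log2(CPM + 1) over the 12 samples, for 10911 other transcripts with at least 10 CPM in 3 or more samples. The highest values were 0.999 for ENSMUST00000157063.2 and 0.999 for ENSMUST00000139528.8. ENSMUST00000157063.2 had 42 counts in the uninjured and 27 in the injured pulldown, and 0 in both input groups. ENSMUST00000139528.8 had 49 and 35 counts in the IP groups, and 0 in the input. These are far less abundant than Lars2. An r of at least 0.9 was reached by 21.4% of the transcripts compared. The 12 samples fall into 2 fractions of very different Lars2 level, so r mainly compares IP with input.

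Whether the Lars2 counts in the pulldown came from Lars2 messenger RNA on translating ribosomes or from ribosomal RNA carried along with the tagged ribosomes was not tested. The table gives 1 value per transcript and sample and no read positions, and levels of ribosomal RNA were not analysed here.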

How the data were processed

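Nanopore cDNA was amplified by PCR and barcoded, per the labels' protocols. The table the authors deposited holds an estimated count for each transcript and sample, with fractions. Salmon and minimap2 are named, with the builds GRCm39 and mm39, per the submitters' processing notes. What each tool did, its version and its settings: not given in the sources used here. Members and lists were chosen with earlier results of these data known, and the gene lists could not be used without gene names.

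Estimated counts were summed over the 3 samples of a group and rounded. TMM factors came from transcripts that passed filterByExpr (edgeR 4.0.16, R 4.3.3). For a fold, a count of 0 in a group was set to 3. A ratio has an exact conditional interval, and the difference of injury effects a normal interval on the log scale. DESeq2 1.42.0 was an alternative. The transcripts named were the members and the 2 most like the pair. The call rule and edgeR were tested on simulated data. Same-numbered samples were not taken as pairs. In each comparison at least 1 same-numbered pair had a correlation of deviations at or below 0.1. With a spread near counting noise, such values cannot tell whether the samples were paired.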

Additional observations from a re-analysis of the deposited data

Results flagged for a closer look

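The Lars2 pair had a lower share in all 3 injured than in all 3 uninjured IP samples and a higher share in all 3 injured than in all 3 uninjured input samples. The log2 injury fold in IP minus that in input was -1.02. The difference was not tested across animals.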

How the results depend on the processing

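No Lars2 value changed direction under any alternative run. The pair's share was 32.0 and 21.4 per 100 counts of other transcripts in uninjured and injured IP. With library totals alone the pair's log2 folds were 8.35 (uninjured) and 7.51 (injured) for IP against input, -0.46 for injury in IP, 0.38 for injury in input and -0.84 for the difference of injury effects. With DESeq2 size factors they were 5.92 for IP against input in injured ganglia and -0.56 for injury in IP. Without a filter on low counts they were 6.73, 5.73 and -0.57 for the first 3 comparisons. With the samples as replicates, edgeR gave 6.76, 5.79, -0.54 and, for the difference, -0.97. The replicate block gave 6.76, 5.79, -0.54 and -0.97, and DESeq2 6.80, 5.84, -0.50 and -0.96. Leaving out 1 sample, with the TMM factors recomputed, gave 6.80 to 6.95 and 5.85 to 5.93 for IP against input. It gave -0.61 to -0.41 for injury in IP, 0.37 to 0.50 for injury in input and -1.07 to -0.92 for the difference.

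Transcripts called numbered 1789 for injury in IP, against 1004 in edgeR, 749 with the replicate block and 600 in DESeq2. For injury in input they numbered 1471, against 2358 without a filter, 604 in edgeR, 420 with the replicate block and 408 in DESeq2. For the difference of effects they numbered 1011, against 2019 without a filter, 368 in edgeR, 251 with the replicate block and 200 in DESeq2. The cause was not tested, except that more transcripts are compared without a filter. Higher transcripts made up 50.8% of those called for injury in IP, against 60.8% with library totals alone, 59.9% in edgeR, 62.0% with the replicate block and 67.3% in DESeq2. For injury in input they made up 57.9%, against 55.9%, 72.4%, 77.6% and 86.0% in the same order. For the difference of effects they made up 49.3%, against 65.6%, 67.1%, 67.7% and 67.5%. Same-numbered samples had r of -0.174 to 0.136 over the 4 comparisons. The labels' numbers are not shown to pair samples. For IP against input, 0 of 6 samples correlated best with their own number in uninjured and 2 of 6 in injured ganglia. The same count was 0 of 6 for injury in IP and 3 of 6 for injury in input.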
